A study of Mus musculus with 4 samples.

Results

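The genes described here build the mitochondrial ribosome, the respiratory chain and the protein import machinery of mitochondria. They were chosen by name alone, as all nuclear protein-coding mouse genes whose symbol begins with Mrpl, Mrps, Nduf, Cox, Uqcr, Atp5, Sdha to Sdhd, Timm or Tomm (with a number after Mrpl, Mrps, Cox, Timm and Tomm). This rule found 212 genes of 21900 protein-coding genes in the gene table, and no peak value entered it. It was, however, set with earlier results of these data known. The binding of Sp9 was measured by ChIP-seq, which sequences the DNA pulled down with an antibody, here a rabbit antibody to Sp9. The material was bulk basal ganglia from wild-type mouse embryos of the CD1 strain. One ChIP library was made at embryonic day 16.5 (E16.5) and one at embryonic day 13.5 (E13.5), each with an input library made without antibody. The deposited lists name the genes near each peak and give the signed distance of the peak from the transcription start site (TSS) on the mm9 build. They hold 6022 numbered peaks with a gene at E16.5 and 5847 at E13.5, without peak heights or read totals, so the depth of the libraries is unknown. Genes that a list does not name had no peak above the threshold of the authors, which leaves weaker binding possible. Each stage had 1 ChIP library, so differences between the stages have no replicate check and no test was run. All intervals below are 95% Wilson intervals that cover counting error over genes only. In bulk tissue, binding in fewer cells cannot be told apart from weaker binding per cell.

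Sp9 is a zinc finger protein of the SP/KLF family, whose members bind GC-rich boxes, and it is made in progenitors and young neurons of the ganglionic eminences. Mitochondria have their own ribosome, which translates the few proteins encoded by mitochondrial DNA, and every protein of that ribosome is encoded in the nucleus. The respiratory chain passes electrons through complexes I to IV to oxygen, and ATP synthase uses the resulting proton gradient. The nuclear-encoded proteins enter through the TOM complex of the outer membrane and the TIM complexes of the inner membrane. Promoters of such genes are known for binding sites of NRF1, the ETS factor GABP (also called NRF-2), YY1 and SP factors.

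Promoter sequences of 6 members are shown first, because the promoter peaks described below lie mostly within the stretch that these sequences cover. Each is RefSeq sequence of build GRCm38.p6, 5′ to 3′ on the gene's strand, from 250 bases before the TSS to 50 after it. Mrpl32, Ndufv2, Cox7a2l, Timm50 and Cox20 had a promoter peak at both stages and were the nearest of their family among those with a single promoter in the table. Mrpl46 is shown because its peak was also that of a second member, Mrps11, and was chosen after its values were seen. Capitals mark matches on either strand to the GC box GGGCGG, the CACCC-type box CCCACCC, the ETS core CCGGAAG, the NRF1 part TGCGCA, the YY1 core AAGATGG or the CCAAT box. The peaks were placed on another build and the lists give no coordinates, so a peak cannot be put on an exact base of these sequences.
Mrpl32 (chr13:14612988-14613287, minus strand): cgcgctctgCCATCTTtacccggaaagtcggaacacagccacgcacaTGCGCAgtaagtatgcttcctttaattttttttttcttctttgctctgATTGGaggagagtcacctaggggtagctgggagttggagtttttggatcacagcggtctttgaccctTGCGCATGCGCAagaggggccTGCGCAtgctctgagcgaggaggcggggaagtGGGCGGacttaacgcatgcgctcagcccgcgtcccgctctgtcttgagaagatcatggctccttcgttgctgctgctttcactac
Ndufv2 (chr17:66101510-66101809, minus strand): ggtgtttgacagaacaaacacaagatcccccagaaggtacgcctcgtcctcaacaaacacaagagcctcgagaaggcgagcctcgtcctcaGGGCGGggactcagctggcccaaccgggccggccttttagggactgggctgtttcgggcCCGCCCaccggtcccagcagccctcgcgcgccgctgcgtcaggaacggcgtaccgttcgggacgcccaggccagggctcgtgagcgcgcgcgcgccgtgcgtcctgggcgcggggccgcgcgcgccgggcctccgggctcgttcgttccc
Cox7a2l (chr17:83514284-83514583, minus strand): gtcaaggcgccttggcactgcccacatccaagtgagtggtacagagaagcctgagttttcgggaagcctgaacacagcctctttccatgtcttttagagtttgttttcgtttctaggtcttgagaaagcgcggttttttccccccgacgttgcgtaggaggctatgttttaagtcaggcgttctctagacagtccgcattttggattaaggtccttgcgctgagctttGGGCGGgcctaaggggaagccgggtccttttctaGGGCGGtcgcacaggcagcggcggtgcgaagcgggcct
Timm50 (chr7:28311997-28312296, minus strand): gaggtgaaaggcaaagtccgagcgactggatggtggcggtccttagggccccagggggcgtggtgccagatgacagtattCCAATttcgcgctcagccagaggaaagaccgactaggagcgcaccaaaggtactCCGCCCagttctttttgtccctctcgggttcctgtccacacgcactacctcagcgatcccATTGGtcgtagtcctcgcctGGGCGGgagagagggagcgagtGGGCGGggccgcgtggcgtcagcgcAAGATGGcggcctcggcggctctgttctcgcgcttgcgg
Cox20 (chr1:178318903-178319202, plus strand): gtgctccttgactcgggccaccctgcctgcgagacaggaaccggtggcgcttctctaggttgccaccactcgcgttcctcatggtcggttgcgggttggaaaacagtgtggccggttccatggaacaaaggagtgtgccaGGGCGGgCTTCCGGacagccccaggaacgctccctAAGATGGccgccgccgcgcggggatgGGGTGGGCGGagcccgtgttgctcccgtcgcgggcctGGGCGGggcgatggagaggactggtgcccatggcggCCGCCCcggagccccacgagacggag
Mrpl46 (chr7:78783040-78783339, minus strand): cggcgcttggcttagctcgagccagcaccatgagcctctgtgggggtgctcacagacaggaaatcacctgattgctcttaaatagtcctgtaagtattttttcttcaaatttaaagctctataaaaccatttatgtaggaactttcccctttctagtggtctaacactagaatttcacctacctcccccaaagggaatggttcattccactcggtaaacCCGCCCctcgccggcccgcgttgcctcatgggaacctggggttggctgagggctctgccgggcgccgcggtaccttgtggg

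All 6 sequences hold at least 1 match to the GC box. Cox20 has 4 and Timm50 has 3, the nearest beginning 12 and 14 bases before the TSS. Ndufv2 and Cox7a2l have 2 each, and Mrpl32 and Mrpl46 have 1 each, beginning 35 and 31 bases before the TSS. Mrpl32 is the only one of the 6 with the NRF1 part, which it holds 4 times between 203 and 67 bases before the TSS. The YY1 core lies in Timm50, Cox20 and Mrpl32, and the ETS core in Cox20. These are matches of letters and not measured sites.

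The first question was how many of these genes had an Sp9 peak at the promoter, meaning within 1 kb of the TSS. At E16.5, 38 of 212 members (17.9%, interval 13.3 to 23.6) had a promoter peak, against 9.42% of all protein-coding genes. At E13.5, 16 of 212 members (7.55%, 4.70 to 11.9) had one, against 4.93% of all protein-coding genes. The members' share was therefore 1.9 times that of all genes at E16.5 and 1.53 times at E13.5. The members' interval lay above the 9.42% of all genes at E16.5 but included the 4.93% at E13.5. The number of members with a promoter peak was 2.38 times as high at E16.5 as at E13.5, and that of all protein-coding genes 1.91 times, so the count was also higher at E16.5 over the whole list. Of the 212 members, 25 had only peaks farther than 1 kb, against 3728 of 21900 protein-coding genes (17.0%). No assigned peak at either stage was found for 144 of 212 members, against 15774 of 21900 protein-coding genes.

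Promoter peaks were spread over 10 of the 11 families, and no family had one at most of its genes. The large ribosomal subunit (Mrpl) had 9 of 49 genes at E16.5 and 4 of 49 at E13.5, and the small subunit (Mrps) had 5 of 29 and 1 of 29. Complex I subunits by symbol (Nduf) had 6 of 41 at E16.5 and 2 of 41 at E13.5. This family counts Ndufa4, now assigned to complex IV, and its relative Ndufa4l2. Complex II with its assembly factors (Sdh) had 3 of 8 and 0 of 8, and complex III (Uqcr) had 2 of 8 and 0 of 8. Complex IV subunits had 3 of 18 at E16.5 and 2 of 18 at E13.5, and complex IV assembly factors had 2 of 9 at both. Inner membrane import (Timm) had 3 of 15 and 2 of 15, and outer membrane import (Tomm) had 3 of 10 and 0 of 10. ATP synthase (Atp5) was the family with fewer at the later stage, 2 of 17 at E16.5 and 3 of 17 at E13.5. That order depended on the rule. The E13.5 count was 2 within 500 bp and 1 with the nearest TSS only, while the E16.5 count stayed at 2. The complex I assembly factors (Ndufaf) had 0 of 8 at both stages. The intervals of the families overlapped one another widely.

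**Figure D1:**
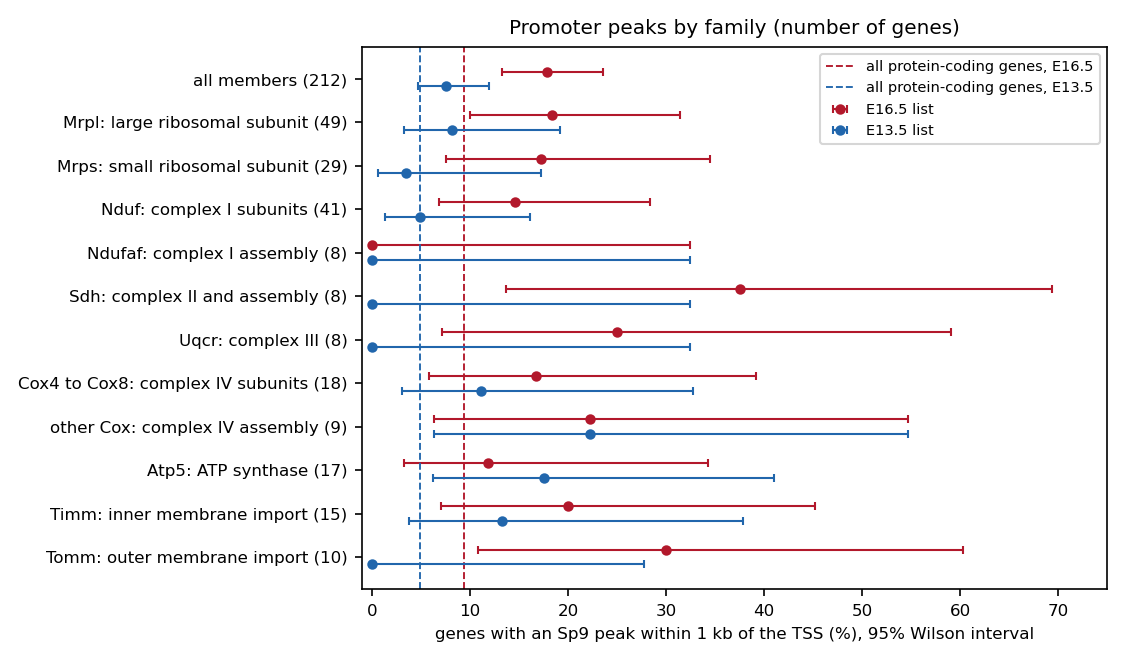
Share of genes with an Sp9 peak within 1 kb of the TSS (percent, x axis) in all members and in each family (y axis, number of genes in brackets), at E16.5 (red, above) and E13.5 (blue, below), with 95% Wilson intervals as bars. Dashed lines mark all protein-coding genes, at 9.42% for E16.5 and 4.93% for E13.5; all members stand at 17.9% and 7.55%, and most family intervals span the line.

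The next question was which promoters were in both lists. A promoter peak at both stages was found at 11 members (5.19%, against 3.40% of all genes). A promoter peak at E16.5 only was found at 27 members (12.7%, against 6.02% of all genes), and one at E13.5 only at 5 members (2.36%, against 1.53% of all genes). Put another way, 11 of the 16 members with a promoter peak at E13.5 (68.8%) also had one at E16.5, close to the 69.0% of all such genes. Of the 38 members with one at E16.5, 28.9% also had one at E13.5, against 36.1% of all such genes.

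Among ribosomal genes in both lists, Mrpl15 had a peak 51 bp upstream of the TSS at E16.5 and 29 bp downstream at E13.5. Mrpl32, a large subunit protein that is trimmed by a protease of the inner membrane on entry, had peaks 104 bp upstream at E16.5 and 66 bp upstream at E13.5. Mrpl49 had peaks 111 and 107 bp upstream at E16.5 and E13.5. Mrps16, the small subunit gene in both lists, had peaks 100 bp upstream at E16.5 and 113 bp upstream at E13.5. At all 4 genes the peak thus lay close to the TSS at either stage.

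Among respiratory chain genes in both lists, Ndufv2 encodes an iron-sulphur subunit of the part of complex I that takes up electrons from NADH. Its peaks lay 70 bp upstream at E16.5 and 88 bp upstream at E13.5. Cox4i1, the widely expressed form of a complex IV subunit, had peaks 120 bp upstream at E16.5 and 143 bp upstream at E13.5. Cox7a2l, which takes part in joining complexes III and IV into a supercomplex, had peaks 127 and 109 bp upstream at E16.5 and E13.5. Cox20, whose human counterpart is a chaperone for a core subunit of complex IV, had peaks 172 bp upstream at E16.5 and 222 bp upstream at E13.5. Cox16 was the member of this group whose peak lay inside the gene at both stages, 202 bp downstream at E16.5 and 209 bp downstream at E13.5.

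Of the import genes, Timm50 and Timm21 were in both lists. They encode parts of the TIM23 complex, which passes precursor proteins into or across the inner membrane. Timm50, the receptor of that complex, had peaks 31 bp upstream at E16.5 and 34 bp downstream at E13.5. Timm21 had peaks 115 bp upstream at E16.5 and 127 bp upstream at E13.5. Over the 11 genes the distances differed between the stages by 4 bp (Mrpl49) to 80 bp (Mrpl15), so all 11 met the limit of 200 bp used to call a peak recurring.

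The 27 members with a promoter peak at E16.5 only included subunits of the catalytic core of several complexes. In complex I, Ndufv1, which binds NADH, had a peak 2 bp downstream of the TSS. Ndufs1, the large iron-sulphur subunit of the same arm, had one 184 bp upstream. Ndufb3 and Ndufb6, accessory subunits of the membrane arm, had peaks 7 and 11 bp upstream. Ndufa4, first described in complex I and now assigned to complex IV, had one 171 bp upstream. At the earlier stage these 5 genes had none.

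In complex II, Sdha, the flavoprotein that oxidises succinate, had a peak 77 bp upstream at E16.5 and no peak at E13.5. Sdhb, its iron-sulphur partner, had one 204 bp downstream at E16.5 and no peak at E13.5. Sdhaf3, an assembly factor for Sdhb that the lists name Acn9, had one 3 bp downstream at E16.5, while its nearest peak at E13.5 was 341383 bp away. The membrane anchor genes Sdhc and Sdhd had no assigned peak at either stage. In complex III, Uqcrfs1, the Rieske iron-sulphur protein, had a peak 24 bp downstream at E16.5, and the core protein gene Uqcrc2 had one 83 bp downstream. Cox5b of complex IV had one 87 bp upstream.

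ATP synthase genes differed in which stage they were listed at. Atp5c1, the gamma subunit that turns inside the catalytic head, had a peak 22 bp downstream at E16.5 only. Atp5g3 had one 3 bp downstream at E16.5 only, whereas Atp5g1 had one 407 bp upstream at E13.5 only. Both encode the same mature subunit c, which forms the rotating ring. The third such gene, Atp5g2, had its only peak about 22 kb upstream, at 21855 bp at E16.5 and 21889 bp at E13.5. Atp5h, a subunit of the peripheral stalk, had a peak 94 bp upstream at E13.5 only, and Atp5j, another stalk subunit, had one 673 bp downstream at E13.5 only. No Atp5 gene had a promoter peak at both stages.

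Of the outer membrane import genes, 3 had promoter peaks at E16.5, and at E13.5 no Tomm gene did. Tomm7, a small subunit of the TOM complex, had a peak 3 bp upstream, and Tomm70a, a receptor for precursor proteins, had one 139 bp upstream. Tomm40, the channel itself, had one 393 bp upstream. Timm29, a part of the TIM22 complex that inserts carrier proteins into the inner membrane, had one 76 bp downstream at E16.5 only and is named 1810026J23Rik in the lists. Among ribosomal genes with a peak at E16.5 only, Mrpl18, Mrpl46, Mrpl17 and Mrpl14 were the nearest of the large subunit, at 16 bp upstream, 35 bp downstream, 37 bp upstream and 40 bp upstream. Mrps14, Mrps11, Mrps5 and Mrps18b were those of the small subunit, at 74 bp upstream, 88 bp upstream, 105 bp downstream and 466 bp upstream. The remaining 2 were Mrpl2, 54 bp upstream, and Mrpl48, 164 bp downstream. The E13.5-only members other than the 3 Atp5 genes were Mrpl47 and Ndufb5, which had the same peak.

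**Figure D2:**
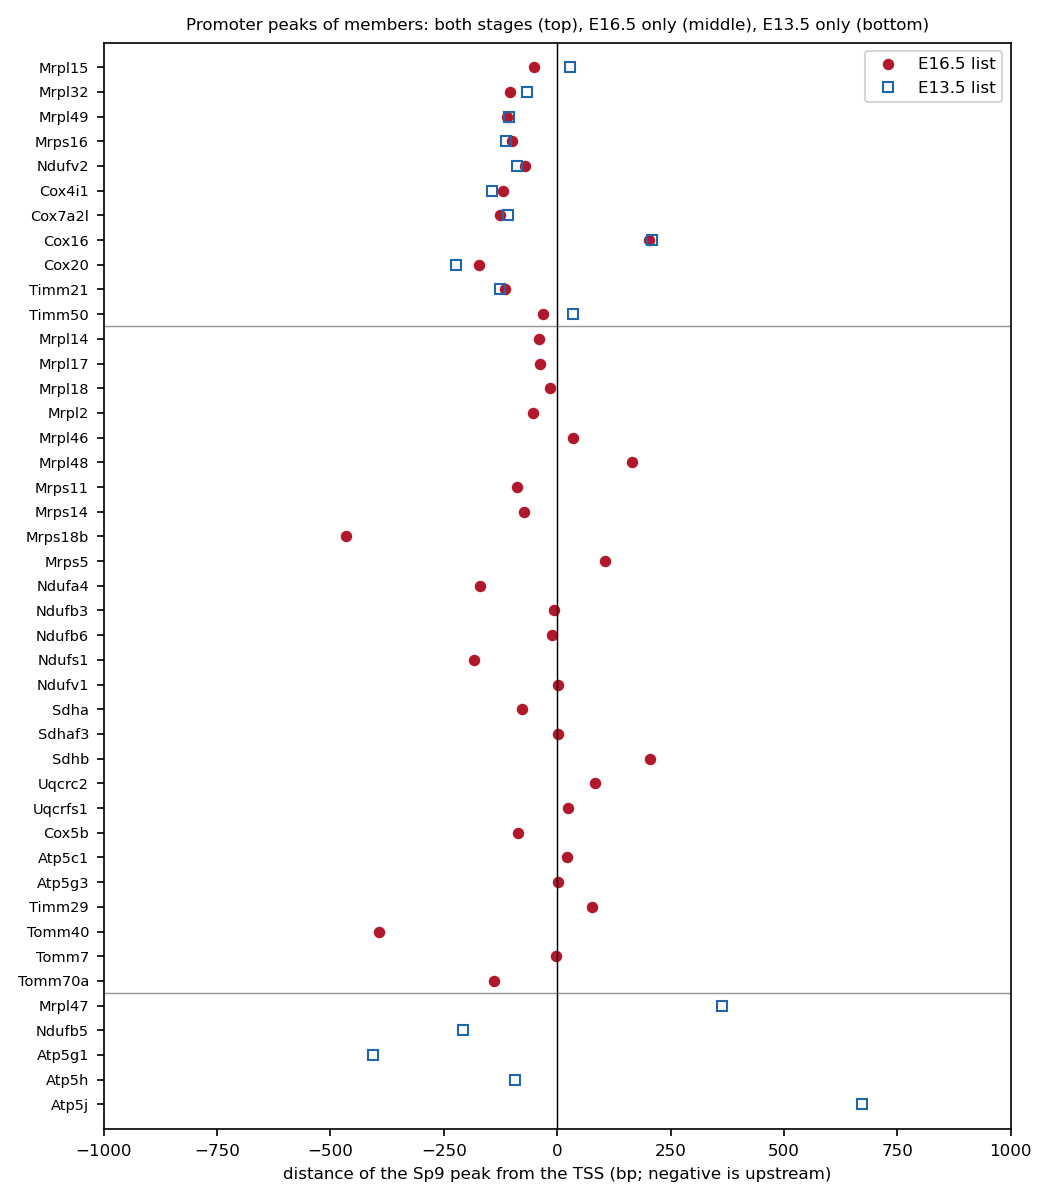
Distance of the Sp9 peak nearest to the TSS (bp, x axis, negative upstream) for the 43 members with a promoter peak (y axis), at E16.5 (red circles) and E13.5 (open blue squares). The 11 genes in both lists are at the top, the 27 at E16.5 only in the middle and the 5 at E13.5 only at the bottom; the farthest peak lies 466 bp from the TSS at E16.5 and 673 bp at E13.5.

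The promoter peaks of members lay close to the TSS. At E16.5 the median distance was 80 bp over 38 members, against 109 bp over the 2063 protein-coding genes with a promoter peak. At E13.5 it was 120 bp over 16 members, against 125 bp over 1079 genes. At E16.5, 34 of the 38 (89.5%) were within 200 bp of the TSS, against 72.6% of all such genes, and at E13.5 10 of 16 (62.5%), against 70.3%. The peak was upstream at 26 of 38 members (68.4%) at E16.5 and at 11 of 16 (68.8%) at E13.5, near the 64.2% and 68.5% of all such genes. The limit of 1 kb fell in a wide gap at both stages. The outermost promoter peaks at E16.5 belonged to Tomm40 and Mrps18b, and the next peak out was 11563 bp from Mrps35. At E13.5 the outermost was that of Atp5j at 673 bp, and the next was 4637 bp upstream of Ndufa4l2, a relative of Ndufa4 and the one member whose nearest peak lay between 1 and 10 kb.

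Many of these peaks were also promoter peaks of a neighbouring gene. The 38 members at E16.5 held 37 distinct promoter peaks, of which 13 (35.1%) lay within 1 kb of the TSS of another gene, against 14.0% of all promoter peaks of protein-coding genes. At E13.5 the 16 members held 15 distinct peaks, of which 6 (40.0%) were shared in this way, against 13.9%. The shared peaks joined 16 distinct pairs of genes, and the 14 pairs whose strands are in the promoter table all ran in opposite directions. In that table, 58 of the 180 members with a sequence (32.2%) had a TSS of another protein-coding gene on the opposite strand within 1 kb, against 9.61% of all genes. Among members with a promoter peak it was 19 of 37 (51.4%), and among members without one 39 of 143 (27.3%). Over all genes the shares were 22.9% with a promoter peak and 7.95% without one. Shared promoters were thus more frequent among members than among all genes whether or not a peak was present, and no test was made of these differences.

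Of the shared peaks, one at each stage joined 2 members. At E16.5 a single peak lay 35 bp downstream of the Mrpl46 TSS and 88 bp upstream of the Mrps11 TSS, so the large and the small ribosomal subunit gene had the peak together. At E13.5 a single peak lay 364 bp downstream of the Mrpl47 TSS and 207 bp upstream of the TSS of Ndufb5, an accessory subunit of complex I. Neither pair had a promoter peak at the other stage. In the sequence of Mrpl46 above, the GC box match begins 31 bases before the TSS.

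The partners are described here without a test of what they have in common. The Mrpl32 peak was also that of Psma2, a proteasome subunit, 113 bp upstream of its TSS at E16.5 and 151 bp at E13.5. The Mrpl49 peak was also that of Fau, which encodes a cytoplasmic ribosomal protein as a fusion, 31 bp upstream at E16.5 and 35 bp at E13.5, and lay nearer to Fau than to Mrpl49. The Mrpl18 peak at E16.5 lay 21 bp upstream of Tcp1, a subunit of the cytoplasmic chaperonin. The Ndufs1 peak at E16.5 lay 181 bp downstream of Eef1b2, a translation elongation factor gene, about as far as from Ndufs1 itself. The Cox4i1 peak was nearer to Emc8, a subunit of a membrane insertion complex of the endoplasmic reticulum, at 58 bp upstream at E16.5 and 35 bp upstream at E13.5. The Atp5j peak at E13.5 lay 27 bp downstream of the TSS of Gabpa, which encodes the DNA-binding subunit of GABP. The other shared partners were Kin (with Atp5c1), Tmem63b (Mrpl14), Ppp1r10 (Mrps18b), Zfp661 (Mrps5), Fam126b (Ndufb3), Ccdc127 (Sdha) and Yipf2 (Timm29) at E16.5, and Kctd2 (Atp5h) at E13.5. Of these, Tmem63b, Ppp1r10, Ccdc127, Yipf2 and Kctd2 were nearer to the peak than the member was. Kin, Zfp661 and Fam126b were farther from it. When a peak counted only for the gene with the closest TSS, 30 members (14.2%, against 8.33% of all genes) kept a promoter peak at E16.5, and 11 (5.19%, against 4.38%) at E13.5. Under that rule the E13.5-only members numbered 2.

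The promoters of members with a peak were compared with those of members without one. Of the 212 members, 180 had a sequence in the promoter table. Members without a promoter peak had 148 promoters of 143 genes. Promoters of the same gene were counted separately, and the promoter nearest the peak was not picked out. Of the 43 members with a promoter peak, 37 had a sequence, with 46 promoters. The GC box GGGCGG, the textbook site of the SP family, was in 30 of these 46 promoters (65.2%) and in 66 of 148 promoters of members without a peak (44.6%). Over all protein-coding genes it was in 75.1% of 2444 promoters with a peak and in 42.4% of 18819 without one, and in 46.2% of all. The ETS core CCGGAAG was in 15 of 46 promoters (32.6%) of members with a peak and in 49 of 148 (33.1%) of members without one. Over all genes it was in 18.8% of promoters with a peak and 10.6% without one. The NRF1 part TGCGCA was in 9 of 46 promoters (19.6%) of members with a peak and 40 of 148 (27.0%) of members without one, against 17.4% and 8.75% over all genes with and without a peak. The YY1 core AAGATGG was in 6 of 46 and 24 of 148, against 8.31% and 5.97% over all genes with and without a peak.

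So the GC box was more frequent where a peak was present, among members as among all genes. The ETS letters had nearly the same share in members with and without a peak. The NRF1 share of members with a peak was close to that of all genes with a peak, and no test was made of these differences. The CACCC-type box CCCACCC was in 7 of 46 promoters (15.2%) of members with a peak and in 18.2% of members without one, against 22.1% and 18.4% over all genes with and without a peak. The CCAAT box was in 41.3% and 38.5%, against 37.6% and 38.3% over all genes. Both strands were searched, and motifs were counted without regard to overlap: a GC box can overlap a CACCC-type box, as it does in Cox20. The median GC content was 61.8% in promoters of members with a peak and 57.8% in those without one, against 64.7% and 55.3% over all genes with and without a peak. GC content thus moved with the presence of a peak, and its part in the GC box count was not tested.

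**Figure D3:**
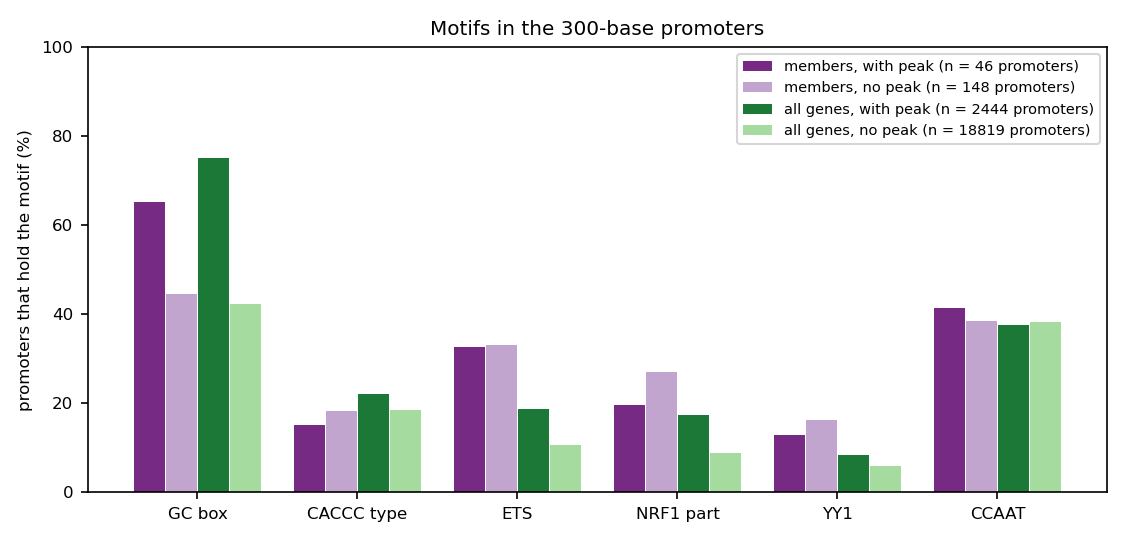
Share of 300-base promoters (percent, y axis) that hold each of 6 short motifs on either strand (x axis), in members with a promoter peak at either stage, members without one, all protein-coding genes with one and all without one. The GC box stands at 65.2% and 44.6% in members and at 75.1% and 42.4% in all genes, and the ETS core stands at 32.6% and 33.1% in members.

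Peaks farther than 1 kb from the TSS were assigned to 25 of 212 members at E16.5 and to 28 at E13.5, in 42 and 40 peaks. Over all 21900 protein-coding genes such peaks were assigned to 3572 at E16.5 and 3734 at E13.5. Any assigned peak, near or far, was found at 58 members (27.4%) at E16.5, against 23.6% of all genes, and at 42 (19.8%) at E13.5, against 20.7% of all genes. Of the farther peaks, 29 of 42 (69.0%) at E16.5 and 27 of 40 (67.5%) at E13.5 lay more than 100 kb from the member's TSS, against 58.7% and 63.3% over all genes. Of the 42 peaks at E16.5, 21 (50.0%) were nearer to another gene, against 45.6% over all genes, as were 16 of the 40 (40.0%) at E13.5, against 45.3%. The farther peaks recurred more often than the promoter peaks at E16.5, 27 of 42 (64.3%) against 11 of 38 (28.9%). Over all genes the same shares were 66.3% and 33.1%. At E13.5, 27 of 40 farther peaks (67.5%) and 11 of 16 promoter peaks (68.8%) recurred, against 57.2% and 63.2% over all genes.

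The farther peaks named here were chosen after their values were seen. Atp5g3 had 8 at E16.5, from 87350 to 540011 bp upstream of its TSS, and 8 at E13.5, from 185713 to 540050 bp upstream. Of the 8 at each stage, 7 recurred, and all but the outermost were nearer to Atp5g3 than to Lnpk, the gene on the far side. Mrps27 had 4 peaks at E16.5, between 100069 and 170487 bp downstream, and 1 at E13.5, all nearer to Map1b, a microtubule-associated protein gene of neurons, whose TSS was 1329 bp from one of them at E16.5. Mrps9 had 3 peaks at E16.5, one of them 17443 bp from Pou3f3, a neural POU factor gene, and the E13.5 list did not name Mrps9. Sdhaf3 had a farther peak 341424 bp downstream at E16.5 that recurred at 341383 bp at E13.5, nearer to the neuropeptide gene Tac1. A member's name on a farther peak comes from the authors' assignment by domains. The farther peaks named here were each assigned to at least 1 other gene as well. Some others, such as those of Mrpl39, were assigned to the member alone.

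**Figure D4:**
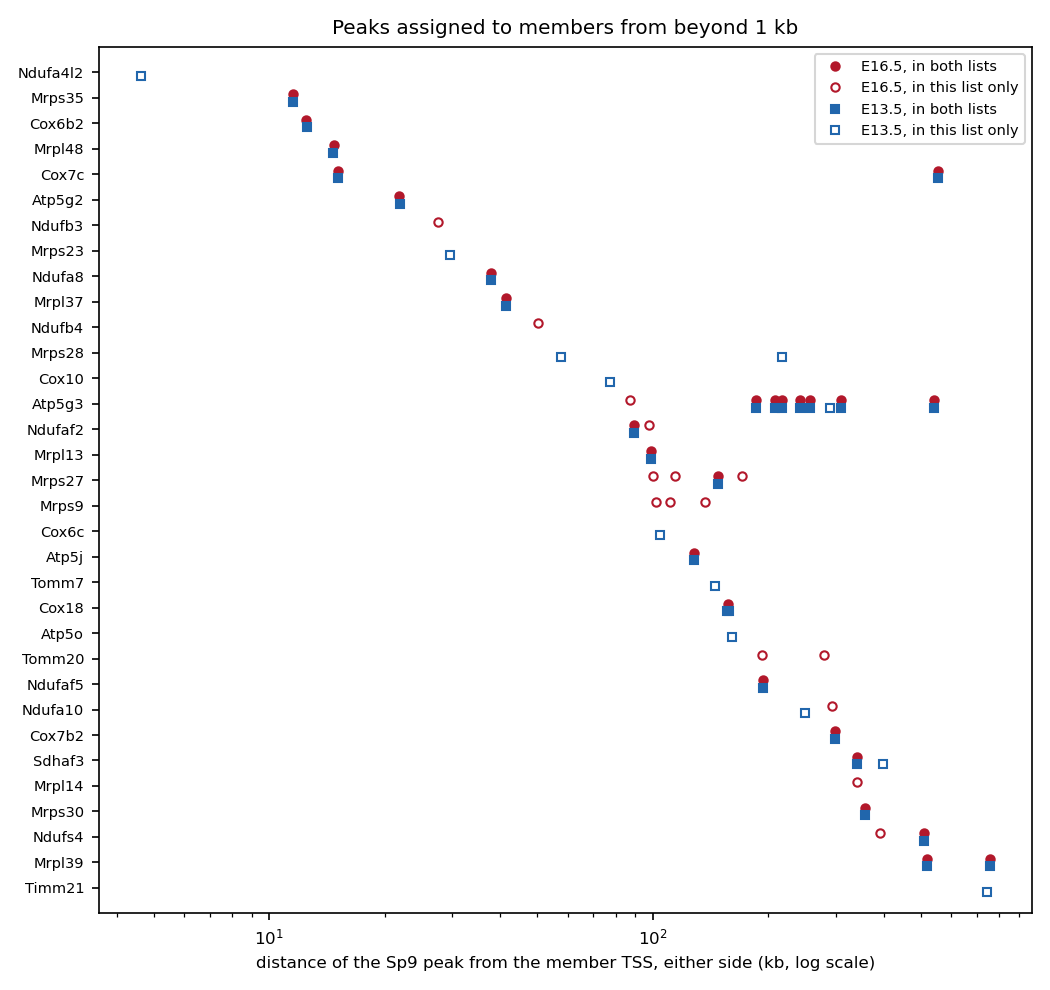
Distance from the member TSS, on either side (kb, logarithmic x axis), of each peak assigned to a member from beyond 1 kb (y axis, gene), at E16.5 (red circles, above) and E13.5 (blue squares, below). Filled symbols mark peaks found in both lists within 200 bp and open symbols those in 1 list; Atp5g3 holds 8 at each stage.

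Other mitochondrial genes outside the name rule were read in 7 lists, beside the 9.42% of all protein-coding genes with a promoter peak at E16.5 and the 4.93% at E13.5. With 11 to 18 genes a list, the intervals of the shares are wide. The import motor and matrix protease list had a promoter peak at 5 of 17 genes at E16.5 and 7 of 17 at E13.5. For this list the nearest TSS only gave 4 and 6, and the genes named next follow the 1 kb rule. Its 5 genes at both stages included Hspd1 and Hspe1, the matrix chaperonin and its partner, with peaks 2 and 106 bp upstream at E16.5, and 7 bp downstream and 115 bp upstream at E13.5. Whether Hspd1 and Hspe1 shared 1 peak at each stage was not looked up. If they did, the list count holds that peak at both genes. The others were Grpel1, a nucleotide exchange factor of the import motor, 30 bp downstream at E16.5 and 29 bp at E13.5, Clpx, an unfoldase, 61 and 24 bp upstream, and Hspa9, the motor's own chaperone, 197 and 171 bp upstream. The citric acid cycle and pyruvate dehydrogenase list had 0 of 17 at both stages (interval 0 to 18.4), and its 1 gene with any peak was Suclg2, 242128 bp upstream at E16.5 and 67117 bp downstream at E13.5.

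The mitochondrial tRNA synthetases had a promoter peak at 4 of 17 genes (23.5%, interval 9.56 to 47.3) at E16.5, against 9.42% of all genes. At E13.5 it was 3 of 17 (17.6%, 6.19 to 41.0), against 4.93% of all genes. With the nearest TSS only, 4 genes at E16.5 and 1 at E13.5 kept a promoter peak. Mars2 and Ears2, the enzymes for methionine and glutamate, had one at both, 7 bp upstream and 19 bp downstream at E16.5, and 57 and 62 bp downstream at E13.5. Pars2 and Fars2 had one at E16.5 only. The mitochondrial translation factors had 2 of 11 (interval 5.14 to 47.7) at E16.5, the elongation factor genes Tsfm and Tufm at 4 and 117 bp upstream, and 1 of 11 (1.62 to 37.7) at E13.5. The genes that copy and express mitochondrial DNA had 3 of 16 at E16.5 (Mgme1, Ssbp1 and Mterf3) and 2 of 16 at E13.5. The list of cytochromes c and further chain assembly genes had 3 of 18 at E16.5 and 2 of 18 at E13.5. Tmem126b and Atpaf2, assembly factors for complex I and for ATP synthase, had a promoter peak at both, 96 and 166 bp upstream at E16.5, and 26 and 151 bp upstream at E13.5. Etfb had one at E16.5 only.

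Farther than 1 kb at E16.5 lay the nearest peaks of Lrpprc (41152 bp), Gfm2 (52599 bp) and Nubpl (40830 bp), which also belong to these lists.

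Among 12 regulators of mitochondrial genes, 2 had a promoter peak at E16.5 and 2 at E13.5 (interval 4.7 to 44.8 at each). No assigned peak at either stage was found for 7 of the 12. Yy1 had a promoter peak at both stages, 173 bp upstream at E16.5 and 61 bp upstream at E13.5. Nrf1 had one 52 bp upstream at E16.5, with its nearest E13.5 peak 31160 bp away, and Gabpa had the E13.5 peak shared with Atp5j and none at E16.5. Ppargc1a, a coactivator of mitochondrial biogenesis, had a peak 5932 bp downstream at E16.5 that recurred at 5968 bp at E13.5. Esrrg, an orphan nuclear receptor gene, had its nearest peak 2082 bp upstream at E16.5 and 2625 bp downstream at E13.5. Set beside other large protein complexes, cytoplasmic ribosomal protein genes had a promoter peak at 21 of 101 genes (20.8%) at E16.5 and 8 of 101 (7.92%) at E13.5. Proteasome subunit genes had one at 11 of 51 (21.6%) and 6 of 51 (11.8%). The members' 17.9% and 7.55% lie within the intervals of both groups, so these counts do not separate the mitochondrial genes from them.

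**Figure D5:**
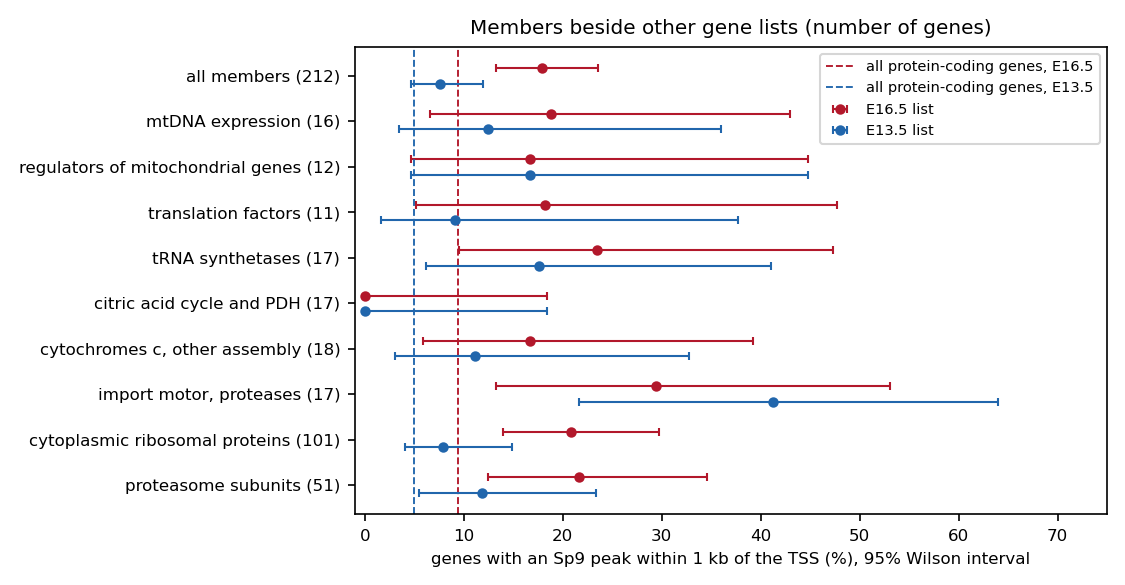
Share of genes with an Sp9 peak within 1 kb of the TSS (percent, x axis) in the members, in 7 further mitochondrial lists and in cytoplasmic ribosomal protein and proteasome genes (y axis, number of genes in brackets), at E16.5 (red, above) and E13.5 (blue, below), with 95% Wilson intervals. Dashed lines mark all protein-coding genes, at 9.42% for E16.5 and 4.93% for E13.5; the import motor and protease list stands at 29.4% and 41.2%, and the citric acid cycle list at 0% at both stages.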

How the data were processed

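Peaks of 2 Sp9 ChIP libraries were analysed, 1 per stage; the 2 input libraries entered only through the authors' calling, per the file names. The deposited columns have no measurement unit. They give, per gene, the numbered peaks assigned to it with the signed TSS distance of each. Per the file headers, the authors assigned peaks on mm9 by domains of 5000 bp upstream and 1000 bp downstream of the TSS, extended up to 1000000 bp, with curated domains. MACS2 2.1.0, BWA 0.6.2, bcl2fastq 1.8.4 and CASAVA 1.8.2 are named, without settings, per the submitters' processing notes. No source used here gives the threshold for peaks. Lettered entries of 1 peak number were counted once.

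Names were matched to a gene table of GRCm38.p6, used for names and gene type: 5331 of 5463 names at E16.5 and 4699 of 4826 at E13.5 matched, 327 and 282 through a synonym. Sdhaf3 and Timm29 were the members found through one. An unmatched name counts as no peak. Of the list genes, Mtrfr was not matched. Peaks of a gene within 200 bp by TSS distance were called recurring. No test was run. The counting was tested on simulated data.

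Members and lists were chosen with earlier results of these data known. Named were members with a promoter peak at both stages or at E13.5 only, up to 4 per family at E16.5 only, those with a nearest peak at 1 to 10 kb, and up to 4 genes of each further list nearest at E16.5. Mrpl2, Mrpl48, Ndufs1, the genes without a peak, the neighbours, and Gabpa and Hspa9 were named after their values were seen. Alternatives were other windows, the nearest TSS only, symbols without synonyms, a background without predicted genes, other recurrence limits and 1 strand for motifs. Analyses used Python 3.11.15, numpy 2.4.6, scipy 1.17.1 and matplotlib 3.10.9.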

Additional observations from a re-analysis of the deposited data

How the results depend on the processing

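The total numbers of members with a promoter peak stayed within 1.5 times the reported count under every alternative run. Alternative windows were 500 bp, 2.5 kb and 5 kb upstream to 1 kb downstream. The other alternatives were the nearest TSS only, symbols without synonyms and a background without predicted genes. The last cannot change the member counts. It moved only the share of all genes with a promoter peak, from 9.42% to 10.2% at E16.5 and from 4.93% to 5.32% at E13.5. The totals ran between 30 and 38 at E16.5 and between 11 and 17 at E13.5. Some family and list counts moved further with the nearest TSS only. At E13.5 Mrpl fell from 4 to 2, complex IV subunits from 2 to 1 and Atp5 from 3 to 1. The tRNA synthetases fell from 3 to 1 and the cytochrome c list from 2 to 1 at E13.5. Mrps fell from 5 to 3 at E16.5. The number of members at E13.5 only was 5 as reported and 2 with the nearest TSS only. The peak of 3 of those genes is nearer to a neighbour. Recurrence within 100 or 500 bp and shared promoters within 500 bp or 2.5 kb stayed within 1.5 times the reported counts. The GC box was in 30 of 46 promoters on either strand and in 19 on the gene's strand only. A stricter peak threshold could not be tried without peak scores. No paired analysis was possible because each stage had 1 ChIP library and no result comes from a test. Depth and peak strength were unknown, so a member without a peak cannot be told apart from one just below the threshold.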
